A study of Mus musculus with 3 samples.

Results

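The 7 genes described here encode 2 secreted ligands and the receptors that read them on retinal vessels, 7 of 18545 genes in the deposited matrix. They were chosen by name. Vegfa (vascular endothelial growth factor A) and Ndp (Norrin) are the ligands. Kdr (VEGF receptor 2) and Flt1 (VEGF receptor 1) bind VEGF-A, while Fzd4 (Frizzled 4), its co-receptor Lrp5 and the tetraspanin Tspan12 form the Norrin receptor complex. Each gene was followed through 21 deposited clusters of dissociated retinal cells in 3 libraries, 1 per group: WT C57BL/6J mice on base chow, rd10 mice on the same chow (rd10-vehicle), and rd10 mice fed chow containing tamsulosin, metoprolol and bromocriptine (rd10-TMB). Rd10 mice carry a point mutation of the rod gene Pde6b and lose their rods, and tamsulosin, metoprolol and bromocriptine act on adrenergic and dopamine receptors. All mice were 8 weeks old and had been kept in the dark for life, which slows the degeneration. According to the labels each library pooled 1 retina from each of 4 mice, all female in the rd10 groups and of both sexes in WT, whereas the study text gives fewer mice for the rd10 pools. With a single library in each group, differences are given without a test. The 95% intervals cover counting error only, and pool and group cannot be told apart. Sex could be held apart from group only in part, through WT cells that had an Xist UMI and no Y-linked UMI.

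VEGF-A is released by glia and neurons, its transcription is raised by hypoxia-inducible factors (HIF), and it acts on endothelial cells through KDR. FLT1 binds VEGF-A tightly but signals weakly, and a soluble form sequesters the ligand. Norrin is made by Müller glia (MG), and its binding to FZD4 with LRP5 and TSPAN12 stabilises β-catenin in endothelial cells, which builds the retinal capillary beds and maintains the blood-retina barrier. Loss of function of NDP, FZD4, LRP5 or TSPAN12 causes familial exudative vitreoretinopathy or Norrie disease. The deposited counts are per gene, so membrane-bound and soluble Flt1 were not separated.

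In RefSeq on GRCm38.p6, Vegfa lies at chr17:46016993-46032377, Ndp at chrX:16885521-16911774, Kdr at chr5:75932827-75979072, Flt1 at chr5:147561604-147726438, Fzd4 at chr7:89404366-89410110, Tspan12 at chr6:21771391-21879596 and Lrp5 at chr19:3584825-3686585. The promoters of the VEGF receptor genes are shown because both receptor transcripts were found in MG as well as in endothelium. Each line holds the 250 bases before a RefSeq transcript start on the minus strand, and the capitals mark matches to TATAAA and TGACGTCA on either strand.
Kdr, chr5:75978456-75978705: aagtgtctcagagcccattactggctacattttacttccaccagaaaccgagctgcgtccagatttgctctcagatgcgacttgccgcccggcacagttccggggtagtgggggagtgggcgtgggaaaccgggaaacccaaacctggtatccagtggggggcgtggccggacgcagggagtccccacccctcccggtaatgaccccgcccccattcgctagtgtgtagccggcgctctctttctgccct
Flt1, chr5:147726012-147726261: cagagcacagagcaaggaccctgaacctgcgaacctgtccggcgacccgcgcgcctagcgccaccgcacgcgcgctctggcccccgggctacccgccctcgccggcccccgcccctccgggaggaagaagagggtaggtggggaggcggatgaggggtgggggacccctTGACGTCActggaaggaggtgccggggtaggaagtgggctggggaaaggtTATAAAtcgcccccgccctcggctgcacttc
In the GENCODE vM21 annotation 0 of the Flt1 bases and 3 of the Kdr bases, at the end next to the start, are exonic. The Flt1 window held 1 TATAAA, 25 bases before the start, and 1 TGACGTCA (the cAMP response element), 73 bases before it, and the Kdr window held neither. Among all 32851 windows of the same length 12.4% held TATAAA and 1.55% held TGACGTCA. GGAA, the core of ETS factor sites, occurred 4 times in each receptor's window and at least once in 93.4% of all windows, so its presence does not set them apart. Of the 7 genes 6 had a window.

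The WT, rd10-vehicle and rd10-TMB libraries held 4478, 5952 and 4812 cells and 18882951, 37002532 and 29192530 UMIs (unique molecular identifiers, each standing for 1 captured transcript). Clusters were named from marker genes. MG-like cells numbered 530, 2492 and 1748, or 11.8%, 41.9% and 36.3% of the WT, rd10-vehicle and rd10-TMB libraries. Astrocyte-like cells numbered 20, 88 and 33, so WT values for them rest on few cells. Only 25 barcodes occurred in more than 1 library. A level is given below as CPM, the UMIs of a gene per 1000000 UMIs of all genes in the same cells, in the order WT, rd10-vehicle, rd10-TMB unless named. Levels of different genes are not compared, since transcript length and capture differ.

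Cluster 11, the receptor-bearing endothelium, was checked against markers first. It held 137, 156 and 100 cells, and its leading genes were endothelial, among them Cldn5, Ly6c1, Ptprb, Adgrl4 and Cdh5. However, 46 WT cells, 7 rd10-vehicle cells and 8 rd10-TMB cells carried more UMIs of 21 bipolar cell markers than of 10 endothelial markers. This division was chosen after the values were seen. In these bipolar-rich cells the summed endothelial marker level was 216, 172 and 159 CPM, against 11607, 11348 and 10606 CPM in the remaining cells, and the summed OFF cone bipolar marker level was 3464, 3065 and 3186 CPM against 4.49, 5.09 and 4.89 CPM. Most of the endothelial sum in the bipolar-rich cells was Esam, and 6 of the 10 markers, Cldn5 and Cdh5 among them, were at 0 there in all 3 libraries. Neither Flt1 nor Kdr had been used to divide the cells. Of the bipolar-rich cells 1, from rd10-vehicle, had a Flt1 UMI and 0 had a Kdr UMI. Values for endothelial-like cells are therefore given with the bipolar-rich cells left out, from 91, 149 and 92 cells. Whole-cluster levels of the receptor genes are given beside these, as are whole-cluster list counts where a printed count differs.

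**Figure D1:**
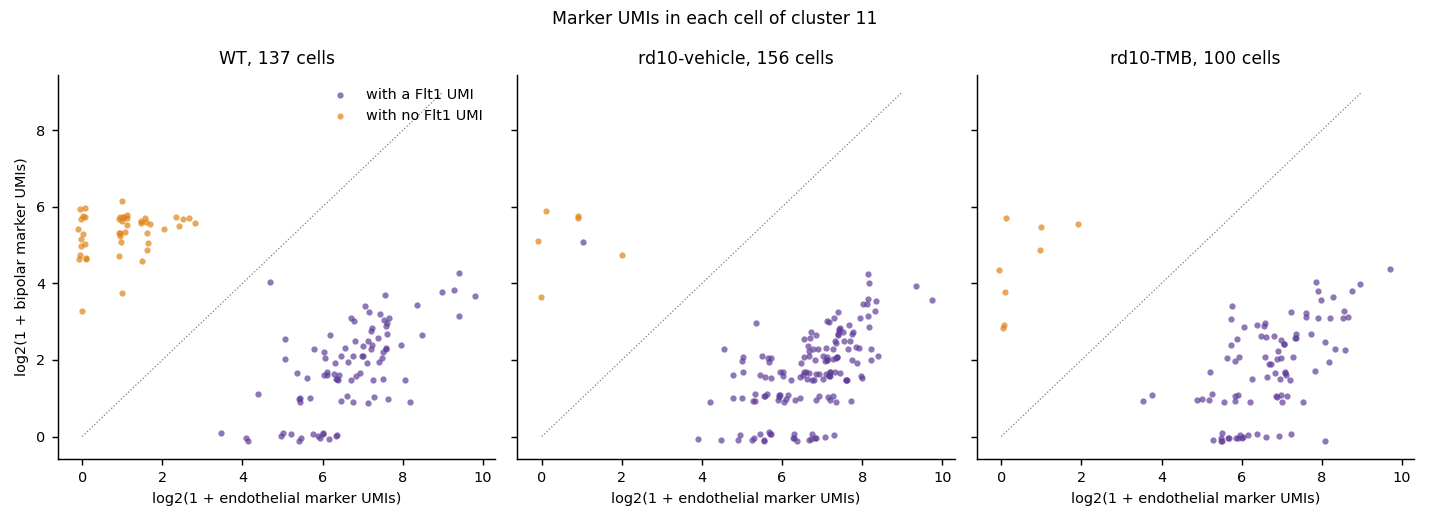
Each point is 1 cell of cluster 11, placed by log2(1 + UMIs) of 10 endothelial markers (x axis) and of 21 bipolar markers (y axis), with 1 panel per library. Points above the dotted line of equal counts are bipolar-rich (46 WT, 7 rd10-vehicle and 8 rd10-TMB cells), and cells with no Flt1 UMI all lie there. A small random offset separates overlapping points.

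Pericyte transcripts were also present in cluster 11. The summed level of 10 pericyte and mural markers, with bipolar-rich cells left out, was 7575, 9363 and 9663 CPM, and 26, 54 and 38 cells of the cluster carried more pericyte than endothelial marker UMIs. Haemoglobin and other red blood cell markers summed to 975, 3406 and 2892 CPM. Both rd10 libraries were thus higher than WT in each of these sums. The part of these transcripts in the results below was not tested, and some values are also given without pericyte-rich cells.

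Vegfa was highest in astrocyte-like cells in all 3 libraries and was lower in glia of rd10-vehicle than in glia of WT. In MG-like cells its level was 211 CPM in WT (701 UMIs), 105 CPM in rd10-vehicle (2321 UMIs) and 141 CPM in rd10-TMB (2363 UMIs). The intervals of the 3 levels did not overlap, with WT highest and rd10-vehicle lowest. The rd10-vehicle level was 0.495 of WT, a log2 ratio of -1.01 (interval -1.14 to -0.89), and rd10-TMB lay 0.43 above rd10-vehicle on the log2 scale (0.35 to 0.51). Against WT, rd10-TMB was lower by a log2 ratio of -0.58 (-0.71 to -0.46), just inside the 1.5-fold limit used here to call a difference. Vegfa UMIs were seen in 56.8%, 46.1% and 50.3% of MG-like cells, and in 17.1%, 10.1% and 11.1% when every cell was thinned to 1000 UMIs. Thinning matters because median UMIs per MG-like cell were 6300, 8594 and 9455. At that depth rd10-TMB over rd10-vehicle gave 0.18 on the log2 scale, from 226 and 287 UMIs, and rd10-TMB over WT gave -0.71, from 226 and 113 UMIs, which is past the limit. Other transcripts also differed in MG-like cells, where 8 astrocyte markers summed to 157, 506 and 358 CPM and 5 red blood cell markers to 0.602, 248 and 1.01 CPM. Their part in the Vegfa ratios was not tested. Against WT cells with an Xist UMI and no Y-linked UMI the Vegfa ratios were -1.01 and -0.58.

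In astrocyte-like cells Vegfa stood at 1253 CPM in WT (406 UMIs), 600 CPM in rd10-vehicle (844 UMIs) and 923 CPM in rd10-TMB (520 UMIs). The order of the libraries was that of MG-like cells, with log2 ratios of -1.06 (-1.24 to -0.89) for rd10-vehicle over WT and 0.62 (0.46 to 0.78) for rd10-TMB over rd10-vehicle. Single cells weighed heavily, since 1 WT cell held 136 of the 406 UMIs. Without the cell richest in Vegfa in each library these ratios were -0.94 and 0.51, the latter short of the 1.5-fold limit. Astrocyte-like cells made up 0.447%, 1.48% and 0.686% of the cells but held 16.8%, 21.2% and 13.8% of all Vegfa UMIs. They also carried MG markers, which summed to 21099, 22648 and 22047 CPM, 49.7% of the MG-like level over all libraries, beside 8190, 8506 and 7677 CPM of astrocyte markers. Pericyte and mural markers there summed to 1077, 1903 and 1724 CPM. The part of either in the astrocyte-like ratios was not tested.

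Neurons carried Vegfa too. RBC-like (rod bipolar) cells had 75.3, 70.3 and 85.9 CPM, OFF cone bipolar-like cells 135, 124 and 131 CPM and cone-like cells 94.7, 61.6 and 57.5 CPM. Rod-like cells had 45.6, 15.1 and 19.8 CPM. Amacrine-like cells had 93.0, 56.0 and 110 CPM on 286, 19 and 37 UMIs, and cluster 10 had 107, 144 and 95.4 CPM on 141, 52 and 50 UMIs. In these classes rd10-TMB lay on opposite sides of rd10-vehicle, with log2 ratios past the limit of 0.97 (0.14 to 1.86) and -0.59 (-1.18 to -0.00). In rd10-vehicle the MG-like level overlapped that of OFF cone bipolar-like cells in counting error, whereas in WT it lay above. Over whole libraries Vegfa was 128, 108 and 129 CPM, a narrower range than within glia. MG-like cells supplied 29.0%, 58.2% and 62.7% of its UMIs, beside 17.6%, 60.0% and 57.5% of the UMIs of all genes. In the endothelial-like cells Vegfa was near the limit of detection, with 6, 7 and 10 UMIs, and 30 of the 36 WT UMIs in cluster 11 were in bipolar-rich cells.

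Ndp was held mainly by MG-like cells, with 50%, 95.4% and 95% of its UMIs, beside 17.6%, 60.0% and 57.5% of the UMIs of all genes. Its MG-like level was 23.2 CPM in WT (77 UMIs), 30.5 CPM in rd10-vehicle (677 UMIs) and 24.7 CPM in rd10-TMB (415 UMIs). The rd10-vehicle level was the highest, by 0.39 on the log2 scale over WT (0.05 to 0.75), and rd10-TMB over rd10-vehicle was -0.30 (-0.48 to -0.12). Neither difference reached 1.5-fold. Astrocyte-like cells went the other way, with 67.9 CPM in WT (22 UMIs), 18.5 CPM in rd10-vehicle (26 UMIs) and 7.10 CPM in rd10-TMB (4 UMIs). There the log2 ratio of rd10-vehicle to WT was -1.88 (-2.75 to -0.99), on 20 WT cells. Horizontal-like cells of WT, 18 in number, held 25 Ndp UMIs (68.8 CPM). Ndp is X-linked and the WT pool mixed both sexes. Against WT cells with an Xist UMI and no Y-linked UMI the MG-like ratios of both rd10 libraries, in the same order, were 0.46 and 0.16, next to 0.39 and 0.09 against all WT cells. In rd10-TMB microglia-like cells all 10 Ndp UMIs came from 1 cell.

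**Figure D2:**
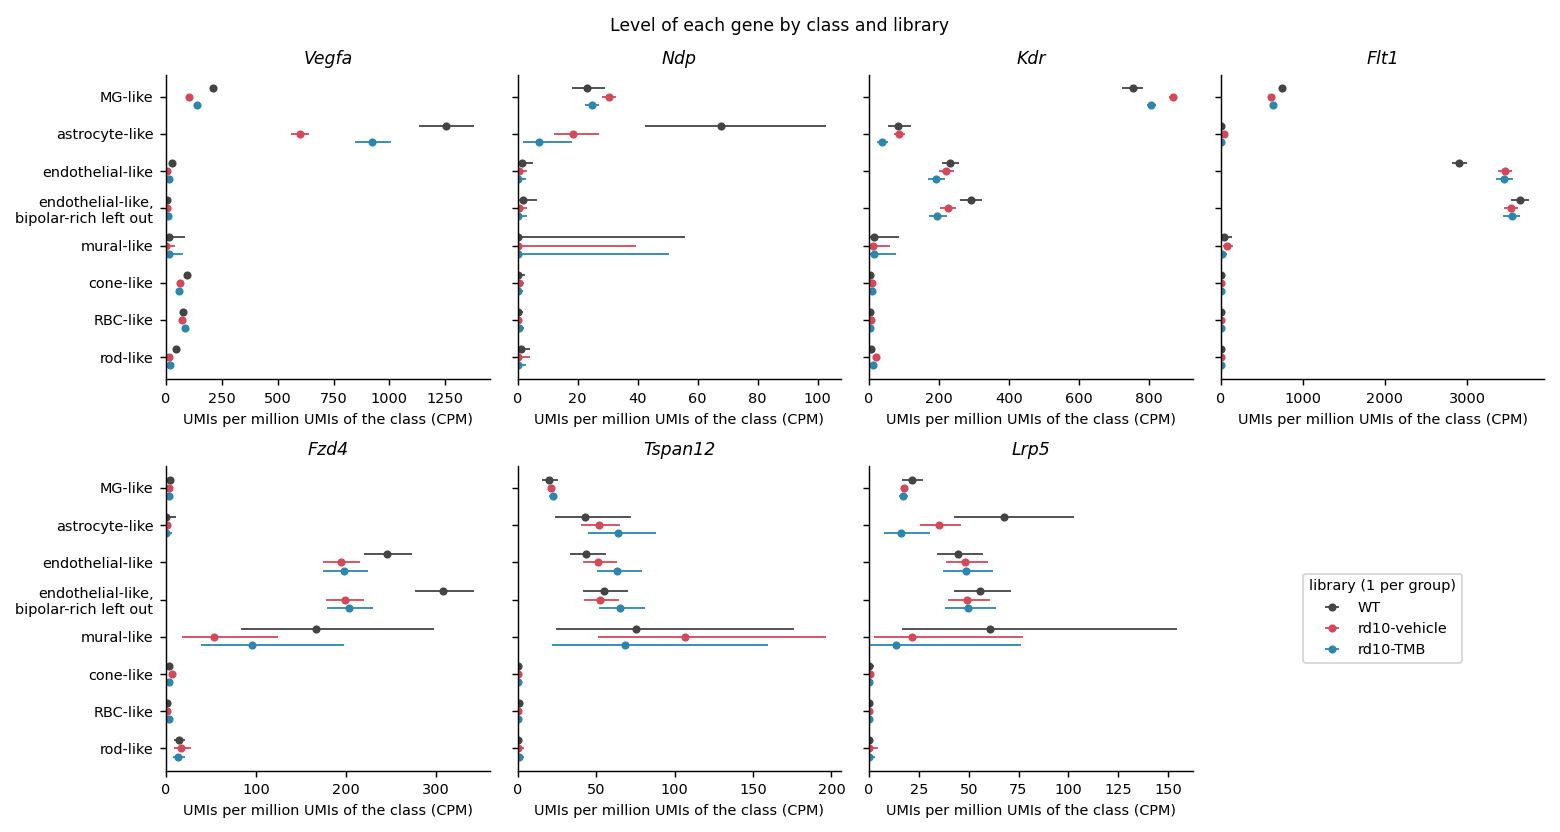
Each panel gives 1 gene, with CPM on the x axis and 8 classes or subsets on the y axis. Points are library levels and bars are exact 95% Poisson intervals (counting error only, 1 library per group). Vegfa is highest in astrocyte-like cells, Kdr in MG-like cells (755, 871 and 808 CPM) and Flt1 and Fzd4, among the classes drawn, in endothelial-like cells.

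Kdr, the main signalling receptor for VEGF-A, was more abundant in MG-like cells than in endothelial-like cells. In MG-like cells it stood at 755 CPM in WT (2505 UMIs), 871 CPM in rd10-vehicle (19324 UMIs) and 808 CPM in rd10-TMB (13556 UMIs). In endothelial-like cells, bipolar-rich cells left out, it was 291 CPM (324 UMIs), 225 CPM (398 UMIs) and 196 CPM (240 UMIs). The MG-like interval lay above the endothelial-like one in every library. A Kdr UMI was found in 90.9%, 96.5% and 94.3% of MG-like cells, and in 44.8%, 56.1% and 53.8% after thinning to 1000 UMIs. The corresponding shares of endothelial-like cells were 81.3%, 81.9% and 72.8%, and 27.8%, 17.4% and 14.1% after thinning. Rod-like cells, which should lack Kdr, had 4.45, 19.8 and 11.1 CPM. The 10 endothelial markers summed to 77.7, 47.1 and 44.6 CPM in MG-like cells and, over all libraries, to 0.470% of their level in cluster 11. Conversely the 10 MG markers summed to 1512, 1329 and 1469 CPM in endothelial-like cells, 3.17% of their MG-like level. MG-like cells held 80.3%, 96.7% and 97.3% of all Kdr UMIs, beside 17.6%, 60.0% and 57.5% of the UMIs of all genes.

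Against WT, Kdr was slightly higher in MG-like cells and, with bipolar-rich cells left out, lower in endothelial-like cells of the rd10 libraries. In MG-like cells the log2 ratio of rd10-vehicle to WT was 0.21 (0.15 to 0.27) and in endothelial-like cells it was -0.37 (-0.59 to -0.16). For rd10-TMB over WT the ratios were 0.10 (0.04 to 0.16) and -0.57 (-0.82 to -0.33). None of these reached 1.5-fold, but against WT cells with an Xist UMI and no Y-linked UMI the endothelial-like rd10-TMB ratio was -0.66, past it. With the whole of cluster 11 the endothelial-like levels were 232, 221 and 191 CPM and the ratio of rd10-vehicle to WT was -0.07. Thinned to 1000 UMIs and without bipolar-rich cells, that ratio was -0.62 on 28 and 26 UMIs, past the 1.5-fold limit. The whole-cluster direction turned in other settings, to 0.17 for rd10-vehicle over WT as a mean over cells, and to 0.09 and 0.47 in rd10-vehicle and in rd10-TMB without cells that had a Pdgfrb, Kcnj8 or Rgs5 UMI. With bipolar-rich cells left out as well, the last setting gave -0.39 and -0.12. Kdr was also seen in cluster 10, a mixed cluster led by Cck, at 98.1, 19.3 and 30.5 CPM, and in astrocyte-like cells at 83.3, 86.7 and 35.5 CPM on 27, 122 and 20 UMIs.

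Flt1 was highest in endothelial-like cells and, with the bipolar-rich cells left out, was nearly equal in the 3 libraries. Its level was 3642 CPM in WT (4054 UMIs), 3534 CPM in rd10-vehicle (6253 UMIs) and 3544 CPM in rd10-TMB (4347 UMIs). A Flt1 UMI was present in 100% of these cells in each library. The log2 ratio of rd10-vehicle to WT was -0.04 (-0.10 to 0.01), rd10-TMB lay at -0.04 (-0.10 to 0.02) against WT and at 0.00 (-0.05 to 0.06) against rd10-vehicle. All 3 intervals lie inside the 1.5-fold limit. In the whole cluster the levels were 2904, 3466 and 3456 CPM, a log2 ratio of 0.26 for rd10-vehicle over WT, and 66.4% of WT cells had a Flt1 UMI. The ratio and the low WT share were both absent once the bipolar-rich cells were left out.

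MG-like cells also carried Flt1, at 750 CPM in WT (2491 UMIs), 610 CPM in rd10-vehicle (13545 UMIs) and 632 CPM in rd10-TMB (10601 UMIs). WT was the highest, with log2 ratios of -0.30 (-0.36 to -0.24) for rd10-vehicle and -0.25 (-0.31 to -0.18) for rd10-TMB. A Flt1 UMI was found in 92.5%, 93.7% and 92.9% of MG-like cells, against a rod-like level of 5.01, 5.81 and 7.12 CPM. Kdr and Flt1 UMIs occurred together in 86.4%, 92.0% and 90.3% of MG-like cells, and Vegfa, Kdr and Flt1 together in 51.7%, 44.4% and 48.2%. The MG-like share of all Flt1 UMIs was 37.8%, 67.6% and 70.4%, beside an MG-like share of cells of 11.8%, 41.9% and 36.3%, and the endothelial-like share was 61.5%, 31.2% and 28.9%. Flt1 in astrocyte-like cells was 1, 55 and 0 UMIs, 28 of the 55 in 1 cell, where the summed endothelial markers were 6.17, 118 and 8.88 CPM.

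**Figure D3:**
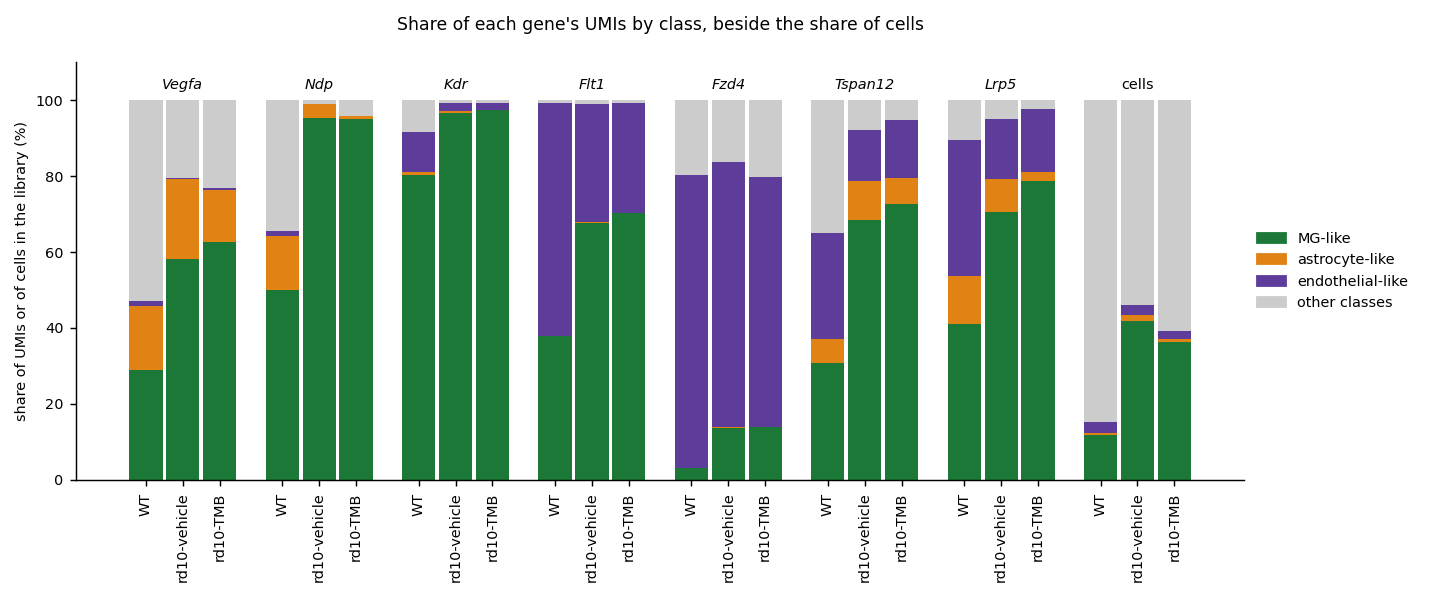
Stacked bars give, for each gene and library, the percentage of the gene's UMIs found in MG-like, astrocyte-like, endothelial-like (whole cluster 11) and all other cells, and the last 3 bars give the percentage of cells. MG-like cells hold 80.3% to 97.3% of Kdr UMIs, and the endothelial-like share of Flt1 is 61.5% in WT against 31.2% and 28.9% in the rd10 libraries.

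Of the receptor genes among the members, only Fzd4, the Norrin receptor, was past the 1.5-fold limit in endothelial-like cells. With bipolar-rich cells left out its level was 308 CPM in WT (343 UMIs), 198 CPM in rd10-vehicle (351 UMIs) and 203 CPM in rd10-TMB (249 UMIs). Both rd10 libraries were below WT and, in this set of cells, close to each other. The log2 ratio was -0.64 (-0.85 to -0.42) for rd10-vehicle over WT, -0.60 (-0.84 to -0.36) for rd10-TMB over WT and 0.03 (-0.21 to 0.27) between the rd10 libraries. Of the 5 members with at least 20 UMIs in these cells, 0 were higher and 1 was lower in rd10-vehicle than in WT, against 8.61% of all 9467 genes higher, 8.24% lower and 16.8% past the limit in either direction. For rd10-TMB over WT the count was again 0 and 1 of 5, against 8.11% higher, 9.27% lower and 17.4% in either direction. For rd10-TMB over rd10-vehicle it was 0 and 0 of 5, against 5.7%, 7.61% and 13.3%. In counts this small, 1 of 5 lies near the background. In the whole of cluster 11, where Vegfa had enough UMIs to be counted, Vegfa was the 1 of 6 members past the limit. It was lower in both rd10 libraries than in WT and, between the rd10 libraries, higher with TMB, against 9.04% of genes higher, 16.6% lower and 25.6% in either direction for rd10-vehicle over WT, 8.48%, 17.3% and 25.8% for rd10-TMB over WT, and 6.04%, 7.28% and 13.3% between the rd10 libraries. The calls rest on 36, 9 and 14 Vegfa UMIs, of which 30 of the 36 in WT lay in bipolar-rich cells, and the interval of the ratio between the rd10 libraries (-0.15 to 2.55) includes 0.

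The size of the Fzd4 difference depended on which cells were kept. In the whole of cluster 11 the levels were 246, 195 and 198 CPM and the log2 ratios to WT were -0.34 and -0.31, short of the limit. Without both bipolar-rich and pericyte-rich cells, 66, 95 and 54 cells, Fzd4 was 340, 194 and 236 CPM and the ratios were -0.81 and -0.53. Without bipolar-rich cells and cells with a Pdgfrb, Kcnj8 or Rgs5 UMI, Fzd4 was 371, 68.8 and 234 CPM on 85, 4 and 15 UMIs, from 24, 9 and 13 cells. There the ratios to WT were -2.43 and -0.66, and rd10-TMB over rd10-vehicle was 1.77. In the whole cluster, leaving out cells with such a UMI gave -1.95 for rd10-vehicle over WT and 1.87 for rd10-TMB over rd10-vehicle. With each cell thinned to 1000 UMIs and bipolar-rich cells left out the ratios to WT were -0.36 and -0.29, on 24, 31 and 20 UMIs, whereas thinning the whole cluster turned their sign (0.16 and 0.17). Of the 10 endothelial markers, bipolar-rich cells left out, 3 were above and 7 below WT in rd10-vehicle, and 1 was above and 9 below in rd10-TMB, with 0 past 1.5-fold in either. In MG-like cells Fzd4 was 4.22, 3.06 and 3.10 CPM, below its rod-like level of 13.9, 16.3 and 13.5 CPM, so no expression there was read from it. Fzd4 was also found in mural-like cells, at 166, 53.4 and 95.8 CPM on 11, 5 and 7 UMIs, and in RPE-like cells (retinal pigment epithelium), at 394, 78.8 and 189 CPM on 19, 11 and 8 UMIs. In both small classes the rd10-vehicle value was the lowest and the WT value the highest, with wide counting intervals. Cluster 11 held 77.1%, 70.1% and 66.0% of all Fzd4 UMIs.

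Tspan12, which strengthens Norrin signalling through FZD4, had overlapping counting intervals between libraries in endothelial-like cells with the bipolar-rich cells left out. Its level was 54.8 CPM in WT (61 UMIs), 52.6 CPM in rd10-vehicle (93 UMIs) and 65.2 CPM in rd10-TMB (80 UMIs). The log2 ratio of rd10-vehicle to WT was -0.06 (-0.54 to 0.43), an interval inside the 1.5-fold limit. It was 0.25 (-0.25 to 0.76) for rd10-TMB over WT and 0.31 (-0.14 to 0.76) for rd10-TMB over rd10-vehicle, which at this depth leaves room for a difference past the limit. In the whole of cluster 11 Tspan12 was 43.7, 51.5 and 63.6 CPM, and the interval of its rd10-TMB ratio to WT, 0.54 (0.04 to 1.05), lay above 0. As a mean over cells that ratio was 1.08, and 0.61 without bipolar-rich cells, both past the limit. Thinning to 1000 UMIs gave 1.43 and 0.97. MG-like cells had 20.2, 21.6 and 22.5 CPM and astrocyte-like cells 43.2, 51.9 and 63.9 CPM, with overlapping intervals between libraries. Against WT cells with an Xist UMI and no Y-linked UMI, however, the MG-like ratios of Tspan12 were 0.67 and 0.73. In WT the intervals of the mural-like, endothelial-like and astrocyte-like levels of Tspan12 overlapped, so their order was not resolved.

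Lrp5, the LDL receptor-related co-receptor, stood at 55.7 CPM in WT (62 UMIs), 49.2 CPM in rd10-vehicle (87 UMIs) and 49.7 CPM in rd10-TMB (61 UMIs) in endothelial-like cells. The log2 ratio to WT was -0.18 (-0.67 to 0.31) for rd10-vehicle and -0.16 (-0.70 to 0.37) for rd10-TMB. In the whole cluster Lrp5 was 44.4, 48.2 and 48.5 CPM and these ratios were 0.12 and 0.13. The rd10-TMB ratios depended on the cells kept and on depth. Without cells that had a Pdgfrb, Kcnj8 or Rgs5 UMI they were -1.58 to WT and -1.62 to rd10-vehicle in the whole cluster, and with bipolar-rich cells also left out Lrp5 was 69.8, 51.6 and 15.6 CPM, on 16, 3 and 1 UMIs. Thinning to 1000 UMIs gave -0.57 and -0.94 in the whole cluster and -1.03 and -0.89 without bipolar-rich cells. MG-like cells had 21.4, 17.6 and 17.2 CPM. Astrocyte-like cells had 67.9, 34.8 and 16 CPM of Lrp5, on 22, 49 and 9 UMIs, with log2 ratios of -0.96 (-1.72 to -0.17) and -2.09 (-3.39 to -0.91) to WT. Fzd4, Lrp5 and Tspan12 UMIs were found together in 22.0%, 16.8% and 25.0% of endothelial-like cells, with overlapping binomial intervals.

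In MG-like cells 0 of the 7 members were higher and 1, Vegfa, was lower in rd10-vehicle than in WT, against 10.4% of 13871 genes higher, 11% lower and 21.4% in either direction. For rd10-TMB over WT 0 of 7 passed, against 9.08% higher, 10.4% lower and 19.5% in either direction. Between the rd10 libraries 0 of 7 passed, against 2.43%, 4.14% and 6.57%. In astrocyte-like cells 1 of 6 members, Flt1, was higher and 3 (Vegfa, Ndp and Lrp5) were lower in rd10-vehicle than in WT, against 13.2% of 8082 genes higher, 17.3% lower and 30.5% in either direction. For rd10-TMB over WT 3 of 5 were lower (Ndp, Kdr and Lrp5), against 9.39% higher, 19.1% lower and 28.5% in either direction. Between the rd10 libraries 1 of 6, Vegfa, was higher in rd10-TMB and 4 (Ndp, Kdr, Flt1 and Lrp5) were lower, against 6.64%, 14.8% and 21.4%. The 4 lower genes had 4, 20, 0 and 9 UMIs in rd10-TMB.

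**Figure D4:**
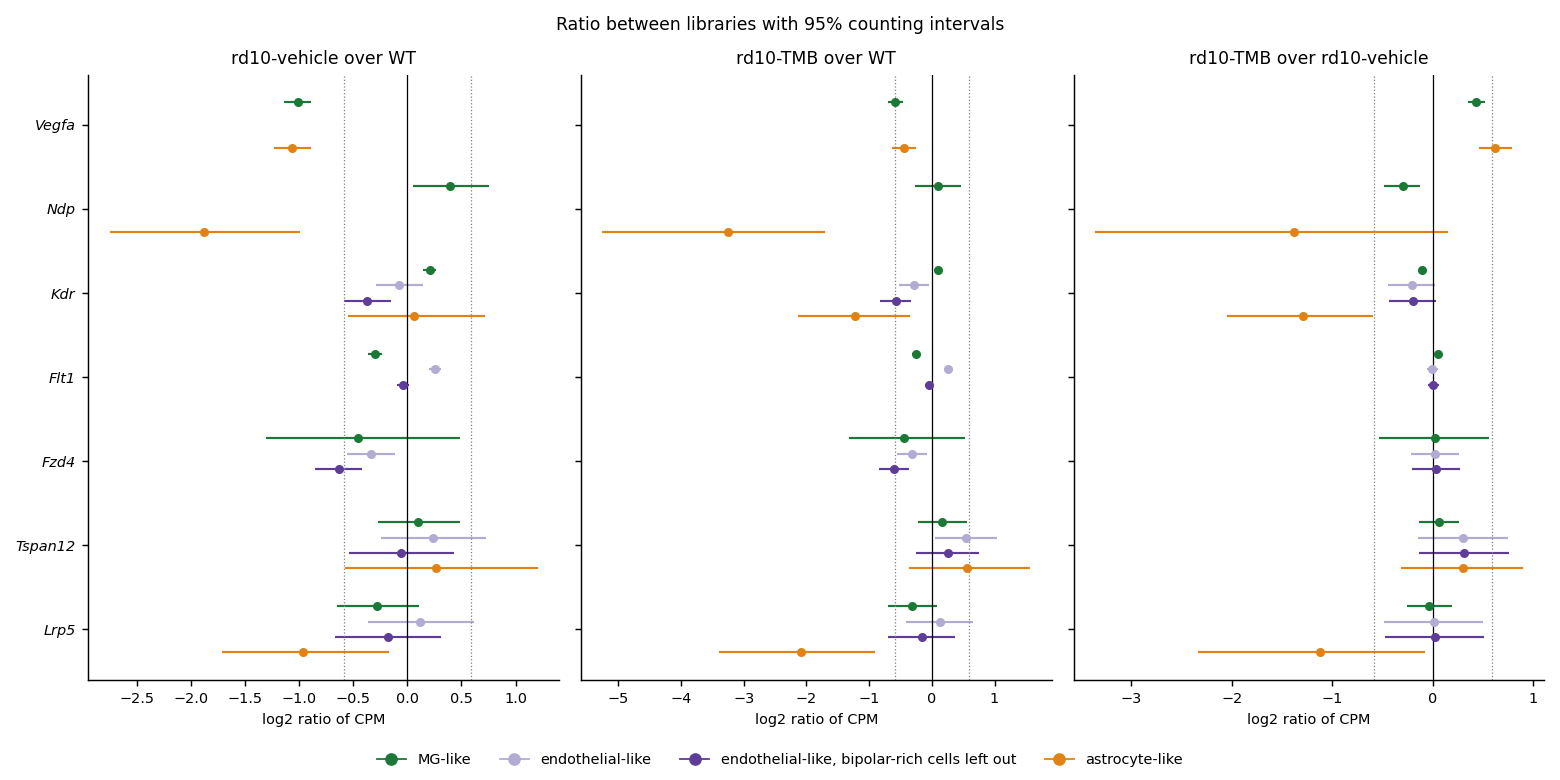
Log2 ratios of CPM (x axis) for each gene between the 3 pairs of libraries, with 95% counting intervals, in MG-like, astrocyte-like and endothelial-like cells, the last with and without bipolar-rich cells. Dotted lines mark 1.5-fold, and each panel has its own scale. Vegfa lies at -1.01 and -1.06 in MG-like and astrocyte-like cells for rd10-vehicle over WT, and Fzd4 moves from -0.34 to -0.64 when bipolar-rich cells are left out. Ligands in endothelium and Flt1 and Fzd4 in astrocyte-like cells are not drawn.

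Other receptors for VEGF differed little in endothelial-like cells (bipolar-rich cells left out, here and in what follows). Flt4, the receptor for VEGF-C, was 63.8, 65.6 and 63.6 CPM. The co-receptor Nrp1 was 152, 153 and 158 CPM and Nrp2 was 97.9, 83.6 and 79.9 CPM, so 0 of 3 passed the limit in any pair. Of the other ligands, Pgf, which binds FLT1, was higher in rd10-vehicle than in WT (6.29, 15.3 and 16.3 CPM, on 7 WT UMIs, log2 ratio 1.28, interval 0.04 to 2.72) and Vegfc was lower (26.9, 17 and 15.5 CPM, log2 ratio -0.67), with Vegfb at 0.18. That is 1 higher and 1 lower of 3, against 8.61% and 8.24% of all genes. In the whole cluster 1 of 3 was higher and 0 were lower, against 9.04% and 16.6%. The ratios of rd10-TMB to rd10-vehicle were 0.10 for Pgf, 0.04 for Vegfb and -0.13 for Vegfc. Pgf was also higher in MG-like cells, with 7.53, 17.7 and 12.8 CPM and a log2 ratio of 1.24, whereas Vegfb there was 61.7, 67.9 and 77.5 CPM. In MG-like cells both co-receptors counted were lower in rd10-vehicle, Nrp1 by a log2 ratio of -0.68 and Nrp2 by -1.04, on levels of 37.4, 23.4 and 17.1 CPM and of 2.41, 1.17 and 0.834 CPM. Of all genes in MG-like cells 10.4% were higher and 11% lower.

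Among other Norrin and Wnt receptor components 2 of 5 were lower in endothelial-like cells of rd10-vehicle than of WT and 0 were higher, with a list median of -0.27 against -0.01 for all genes, of which 8.61% were higher and 8.24% lower. In the whole cluster 0 were higher and 1, Reck (-0.65), was lower, against 9.04% and 16.6% of all genes, with a median of 0.03. The lower genes were Reck, a partner of the Wnt7 co-receptor complex (119, 63.3 and 75.0 CPM, log2 ratio -0.91), and the Frizzled receptor gene Fzd6 (172, 111 and 113 CPM, log2 ratio -0.64). Lrp6 (97.0, 95.5 and 88.0 CPM), Adgra2 (87.1, 72.3 and 74.2 CPM) and Fzd8 (16.2, 18.6 and 22.0 CPM) stayed within the limit. In MG-like cells Reck (-0.97) and Fzd8 (-1.22) were lower and Fzd1 (1.35) was higher, while Lrp6 (-0.23), Adgra2 (-0.29), Fzd6 (0.06) and Fzd7 (-0.21) were within it. That is 1 higher and 2 lower of 7, against 10.4% and 11% of all genes.

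Genes listed as β-catenin targets in endothelium, not split by direction of control, were for the most part within the limit. Of 18 counted in endothelial-like cells 0 were higher and 2 were lower in rd10-vehicle than in WT, against 8.61% and 8.24% of all genes, with a list median of -0.18. In the whole cluster 1 of 18, Foxf2 (0.67), was higher and 0 were lower, against 9.04% and 16.6%, with a median of 0.09. With the bipolar-rich cells left out the lower genes were Apcdd1, a Wnt inhibitor and target (185, 109 and 126 CPM, log2 ratio -0.76), and the transcription factor gene Tcf7 (74.6, 47.5 and 41.6 CPM, -0.65). The highest ratios were those of Foxf2 (0.37) and Mfsd2a, a lipid transporter of the blood-retina barrier (0.26). The glucose transporter gene Slc2a1 was 2362, 1593 and 1963 CPM, a log2 ratio of -0.57. Between rd10-TMB and rd10-vehicle 1 of 17 was higher and 0 were lower, against 5.7% and 7.61% of all genes. The higher one was Axin2, with 49.4, 40.7 and 65.2 CPM (0.68), followed by Ppard (0.37), and the lowest ratios were those of Cldn5 (-0.30) and Mfsd2a (-0.26). Of the 12 counted genes of the β-catenin core 0 were higher and 1, Tcf7, was lower in rd10-vehicle than in WT, next to Znrf3 (-0.49), and the highest ratios were those of Gsk3b and Axin1 (-0.00 and -0.01). Over the whole cluster the 1 lower gene of 12 was instead Dvl3 (-0.71). Between rd10-TMB and rd10-vehicle 0 of 12 were higher and 1 was lower, against 5.7% and 7.61% of all genes, with Axin1 (0.48) and Znrf3 (0.35) highest and Dvl1 (-0.60) and Dvl2 (-0.33) lowest. The β-catenin gene itself, Ctnnb1, was 825, 674 and 737 CPM.

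Genes that respond to VEGF in endothelium were counted in the same way. In endothelial-like cells 6 of 13 were higher and 1 was lower in rd10-vehicle than in WT, against 8.61% and 8.24% of all genes, with a list median of 0.42. Over the whole cluster 7 of 14 were higher and 2 were lower, against 9.04% and 16.6% of all genes, with a median of 0.65. In rd10-TMB 6 of 13 were higher and 1 lower than in WT, against 8.11% and 9.27%, with a median of 0.20. In the whole cluster they were 6 and 0 of 14, against 8.48% and 17.3%. Between rd10-TMB and rd10-vehicle 0 of 13 passed, against 5.7% and 7.61%. In the whole cluster 1 of 14, Fscn1 (0.81), was higher and 0 were lower, against 6.04% and 7.28%. The highest ratios of rd10-vehicle to WT were those of Plaur, the urokinase receptor gene (5.39, 31.1 and 29.3 CPM, 2.53), and Adamts1, a secreted protease gene (272, 650 and 575 CPM, 1.26). The lowest were those of Igfbp3 (97.0, 48.0 and 55.4 CPM, -1.01) and Col4a2 (446, 369 and 381 CPM, -0.27). The others past the limit were the immediate-early gene Nr4a1 (0.90), Angpt2 (0.89), Nid2 (0.67) and Dll4, a Notch ligand of tip cells (0.64). Nr4a1 was also higher in MG-like cells, at 81.3, 253 and 248 CPM. Plaur, Angpt2 and Nid2 rest on 6, 16 and 15 WT UMIs, and the interval of the Nid2 ratio (-0.22 to 1.64) includes 0. The highest ratios of rd10-TMB to rd10-vehicle were those of Egr3 (0.45) and Rcan1 and Igfbp3 (0.21 each), and the lowest those of Nid2 (-0.47) and Unc5b (-0.31).

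**Figure D5:**
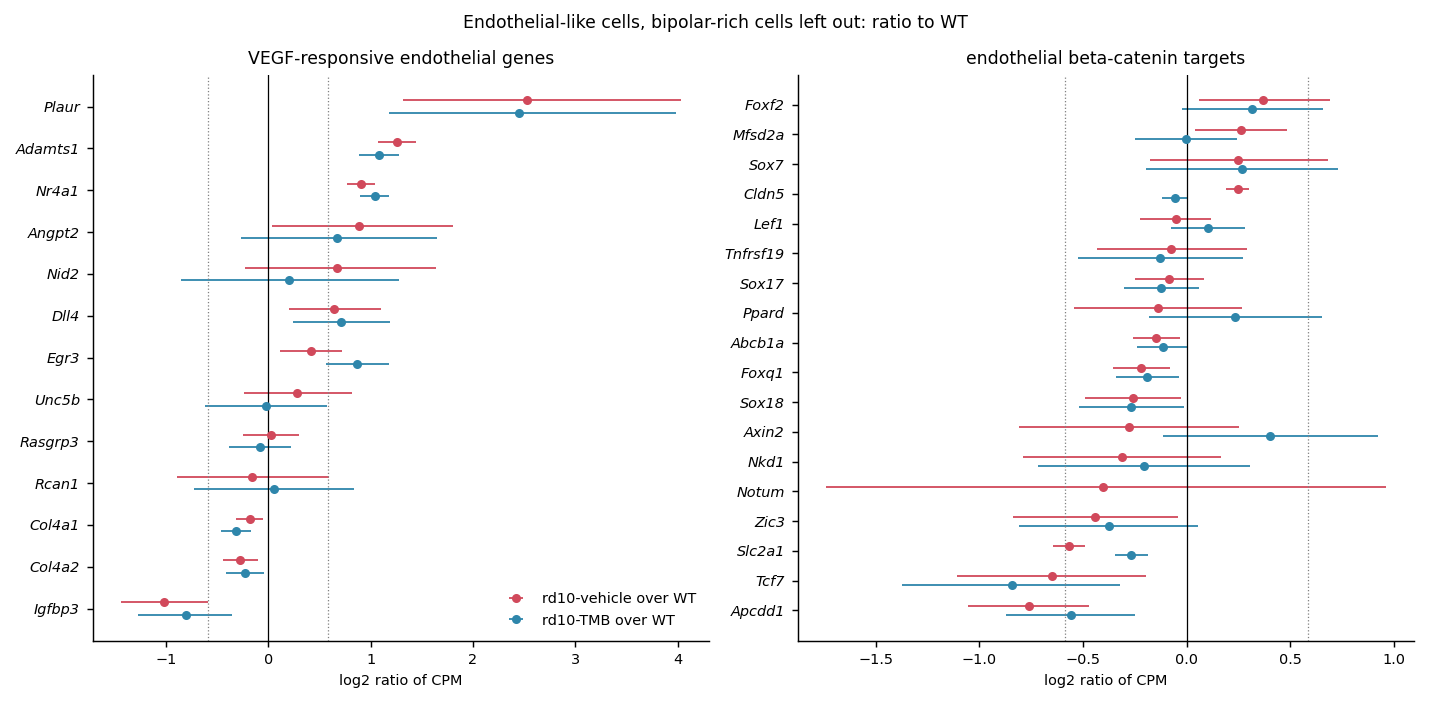
Log2 ratio to WT (x axis) in endothelial-like cells, bipolar-rich cells left out, for VEGF-responsive genes (left) and endothelial β-catenin targets (right), in rd10-vehicle and rd10-TMB, with 95% counting intervals. Dotted lines mark 1.5-fold, and axes differ between panels. Plaur and Adamts1 lie at 2.53 and 1.26 in rd10-vehicle, and Apcdd1 and Tcf7 at -0.76 and -0.65.

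HIF target genes, which share their regulator with Vegfa, were mostly lower in astrocyte-like cells of rd10-vehicle than of WT. Of 16 counted, 2 were higher and 9 were lower than in WT, with a list median of -0.77 against -0.08 for all genes, of which 13.2% were higher, 17.3% lower and 30.5% in either direction. Adm, adrenomedullin, was 667, 246 and 380 CPM (log2 ratio -1.44) and Ankrd37 was 40.1, 12.8 and 44.4 CPM (-1.65), while the highest ratios were those of Pfkfb3 (2.32) and Ndrg1 (1.5). Between rd10-TMB and rd10-vehicle 3 of 16 were higher and 1 was lower, against 6.64% and 14.8% of all genes, with a median of 0.24, led by Ankrd37 (1.79) and Bnip3 (0.65) and with Ndrg1 lowest (-0.76), followed by Hk2 (-0.12). Adm was 0.63 higher. Of 7 HIF pathway genes there 0 were higher and 3 were lower in rd10-vehicle than in WT, with Egln3 (-1.42) and the HIF subunit gene Epas1 (1407, 628 and 802 CPM, -1.16) lowest and Vhl (0.03) and Hif1a (-0.01) highest. Between the rd10 libraries 0 of 7 passed, with Egln3 (0.43) and Epas1 (0.35) highest and Vhl (-0.31) and Hif1a (0.04) lowest. These WT values again come from 20 cells.

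In MG-like cells the same HIF targets were mixed, with 3 of 18 higher and 5 lower in rd10-vehicle than in WT, against 10.4% and 11% of all genes, and a median of -0.19 against -0.04. The highest ratios were those of Adm (4.10, on 1 WT UMI) and Ndrg1 (1.40). The lowest were those of Ddit4 (267, 96.9 and 93.8 CPM, -1.46) and Pfkfb4 (-0.86). In the comparison of the rd10 libraries 0 of 18 were higher and 1 was lower there (2.43% and 4.14% of all genes), Adm (-0.98), next to Ndrg1 (-0.37), with Mxi1 (0.34) and Slc2a1 (0.25) highest. In endothelial-like cells 0 of 16 were higher and 3 were lower, with Pfkfb3 (-1.30) and Ddit4 (-0.98) lowest and Hk2 (0.33) and Pdk1 (0.27) highest, against 8.61% and 8.24% of all genes. Over the whole cluster 0 of 17 were higher and 5 were lower, against 9.04% and 16.6%, with a median of -0.18 against -0.03. Between rd10-TMB and rd10-vehicle 2 of 17 were higher and 1 was lower, against 5.7% and 7.61%, with Pfkfb3 (1.39) and Adm (0.72) highest and Pdk1 (-0.99) and Pfkfb4 (-0.36) lowest. Of 7 HIF pathway genes in MG-like cells 0 were higher and 1 was lower, and Hif1a was 129, 116 and 121 CPM. The lowest ratios were those of the prolyl hydroxylase gene Egln3 (-0.80) and Arnt (-0.27) and the highest those of Egln1 (0.11) and Epas1 (0.01). Between the rd10 libraries 0 of 7 passed, with Egln3 (0.20) and Arnt (0.13) highest and Epas1 (-0.07) and Egln2 (-0.01) lowest. In endothelial-like cells 0 of 6 were higher and 1, Vhl (-0.67), was lower, followed by Egln2 (-0.39), with Hif1a (0.11) and Egln1 (-0.02) highest. For rd10-TMB over rd10-vehicle 0 of 6 passed, with Egln1 (0.06) and Vhl (-0.06) highest and Hif1a (-0.11) and Arnt (-0.10) lowest.

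Of 7 other vascular factors counted in endothelial-like cells 2 were higher and 0 were lower in rd10-vehicle than in WT, against 8.61% and 8.24% of all genes. The highest ratios were those of the angiopoietin genes Angpt1 (1.18, on 5 WT UMIs, interval -0.30 to 2.96) and Angpt2 (0.89), and the lowest those of Tie1 (-0.49) and Sparc (-0.43). The list median was -0.13, and 0.17 in the whole cluster. In MG-like cells 3 of 4 were higher and 0 were lower, against 10.4% and 11% of all genes, led by Thbs1 (2.62, on 1 WT UMI and levels of 0.301, 1.85 and 1.85 CPM) and Pdgfa (1.35), with Sparc (-0.19) and Fgf2 (35.8, 69.4 and 63.8 CPM, 0.95) lowest. Between the rd10 libraries 0 of 5 passed there, against 2.43% and 4.14%, with Thbs1 (0.00) and Pdgfa (-0.03) highest and Pdgfb (-0.43) and Sparc (-0.19) lowest. In endothelial-like cells 1 of 8, Thbs1 (-0.66), was lower in rd10-TMB and 0 were higher, against 7.61% and 5.7%, with Angpt2 (-0.22) next and Sparc (0.05) and Tie1 (0.04) highest.

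The Wnt and VEGF response lists were also counted in MG-like cells, which carry both VEGF receptors. Of 11 β-catenin targets 4 were higher and 3 were lower in rd10-vehicle than in WT, with Plvap (3.15, on 2 WT UMIs) and Mfsd2a (4.82, 30.2 and 27.5 CPM, 2.65) highest and Nkd1 (109, 51.0 and 63.8 CPM, -1.09) and Lef1 (-0.77) lowest. Of 13 genes of the β-catenin core 2 were higher, Tcf7 (1.28) and Rnf43 (1.07), and 2 were lower, Znrf3 (-0.87) and Lef1 (-0.77). Of 11 VEGF-responsive genes 3 were higher and 5 were lower, with Col4a1 (2.47, on 7 WT UMIs) and Egr3 (31.3, 164 and 151 CPM, 2.39) highest and Apln (-1.68) and Cxcr4 (-1.66) lowest. The medians of these lists were -0.09, -0.08 and -0.04 against -0.04 for all genes, of which 10.4% were higher, 11% lower and 21.4% in either direction. Between rd10-TMB and rd10-vehicle 0 were higher and 1 was lower in each list, against 2.43% and 4.14% of all genes. Of the β-catenin targets Plvap (-0.79) was the lower one, followed by Tcf7 (-0.46), with Axin2 (0.44) and Nkd1 (0.32) highest. In the core it was Rnf43 (-0.90), followed by Axin1 (-0.53), with Apc (0.22) and Dvl2 (0.14) highest. Among VEGF-responsive genes it was Col4a1 (-0.91), followed by Col4a2 (-0.58), with Cxcr4 (0.52) and Rasgrp3 (0.37) highest. The list of Wnt ligands had 0 genes with enough UMIs.

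The genes with the most similar pattern to each member were sought over 35 combinations of cluster and library with at least 50 cells, using Pearson r of log2(CPM + 1) among 13330 genes. These points share libraries and cell types, so r is a description. The most similar genes were Slc16a9, Pdgfrb and Maob for Flt1 (r of 0.97, 0.96 and 0.96) and Lrrc8c, Prex2 and Copz2 for Kdr (0.93, 0.89 and 0.89). For Ndp they were Sh3rf3, Dkk3 and Sorcs1 (0.94, 0.91 and 0.90), of which Dkk3 is a marker of MG. For Fzd4 they were Slc30a1, Car4 and Tek (0.86, 0.84 and 0.84). For Vegfa they were Tceal3, Ptov1 and Maged1 (0.89, 0.85 and 0.85), for Tspan12 Ror1, Cavin3 and Zfp423 (0.94, 0.93 and 0.91) and for Lrp5 Agpat2, Irgm2 and 4930523C07Rik (0.95, 0.95 and 0.94). Kdr and Flt1 had an r of 0.77 with each other, and Vegfa and Flt1 one of -0.36.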

How the data were processed

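Single-cell RNA-seq was performed by the authors on papain-dissociated retinas with 10x Genomics v3 chemistry. Reads were processed with Cell Ranger 6.0.1 on mm10, Scrublet was used to remove doublets before deposit, and cells with at least 500 genes were kept and clustered with Seurat 3.2.2 and Harmony. The values the authors deposited are natural log values, ln(1 + UMIs per 10000), for 15242 cells with their cluster and library. Multiplying back by the deposited UMI total of each cell gave whole UMI counts in 100% of 32620606 deposited entries (within 0.001 UMI), and these counts were used. The authors' clusters were named "X-like" from marker genes where at least 3 markers of a class had 20 CPM or more and were at least 2-fold above the other cells, and otherwise kept their number. Clusters 3, 6 and 10 also kept their number because their leading genes or markers did not point to 1 class.

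UMIs were summed per class and library. Exact 95% intervals were computed for levels (Poisson), for shares (Clopper-Pearson) and for ratios (binomial, conditional on the summed UMIs). They cover counting error only, since the UMIs of 1 pooled library measure no spread between animals. A difference past 1.5-fold with at least 20 UMIs over both libraries was called higher or lower, and the percentage of all genes past that limit in the same cells was given beside it. No test was run, because each group had 1 library. The ratio and its interval were tried on simulated Poisson counts, which hold no spread between cells or pools, so the trial covers counting error only. The 7 genes and the 10 lists of related genes (93 of 97 listed genes in the matrix) were chosen with earlier results of these data known. All 7 genes were described. Of the lists, members of the receptor lists were named, and otherwise the 2 highest and 2 lowest ratios of rd10-vehicle to WT and of rd10-TMB to rd10-vehicle, for the classes where the list was described. Other names were chosen after their values were seen. The alternatives are listed with their effect at the end. Python 3.11.15, numpy 2.4.6, scipy 1.17.1, pandas 2.3.3 and matplotlib 3.10.9 were used, with RefSeq (GRCm38.p6) for positions and promoters, the same build as mm10.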

Additional observations from a re-analysis of the deposited data

Results flagged for a closer look

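Some genes had ratios of opposite sign in different cell classes under the same pair of libraries, each with an interval that left out 0. The difference between classes was not tested, since each group had 1 library. For Kdr the log2 ratio of rd10-vehicle to WT was 0.21 in MG-like cells and -0.37 in endothelial-like cells without the bipolar-rich cells. For rd10-TMB over WT it was 0.10 in MG-like cells, -0.28 in the whole of cluster 11, -0.57 without the bipolar-rich cells and -1.23 in astrocyte-like cells, on 20 and 27 UMIs. For Ndp the ratio of rd10-vehicle to WT was 0.39 in MG-like and -1.88 in astrocyte-like cells.

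For Flt1 the ratio of rd10-vehicle to WT was -0.30 in MG-like cells and 0.26 in the whole of cluster 11, and that of rd10-TMB to WT was -0.25 and 0.25. With the bipolar-rich cells left out the endothelial-like ratios were -0.04 and -0.04, so the opposite direction was lost. In astrocyte-like cells Flt1 was 3.66 higher in rd10-vehicle than in WT (1.12 to 8.99), on 55 UMIs against 1.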

How the results depend on the processing

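No paired analysis was possible because each group had 1 library. Of 269 alternative values of the 21 planned ratios (ligands in MG-like cells, receptors in the whole of cluster 11), 220 stayed within the counting interval, and 49 moved out of it. Of these values 32 had the opposite sign to the reported ratio, 3 of them past 1.5-fold, all for Lrp5 in rd10-TMB and given below. Among the planned ratios only that of Vegfa in MG-like cells, rd10-vehicle over WT, was reported as past 1.5-fold. Its sign did not change. For 39 ratios added after the data were seen, 394 of 441 values stayed within the counting interval, 47 moved and 29 changed sign, 5 of them past 1.5-fold. Only 1 cluster was MG-like, so the alternative of using the largest gave the same values. Ratios below are in the order rd10-vehicle over WT, rd10-TMB over WT and rd10-TMB over rd10-vehicle unless named. Thinned to 1000 UMIs, Vegfa in MG-like cells gave -0.89, -0.71 and 0.18, and Ndp gave 0.77 for rd10-vehicle over WT on 64 and 8 UMIs. With the rod-like level subtracted, Vegfa gave -0.89 and -0.45 against WT.

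In cluster 11, leaving out bipolar-rich cells gave ratios to WT of -0.37 and -0.57 for Kdr, -0.043 and -0.039 for Flt1 and -0.64 and -0.60 for Fzd4. Restricting WT to cells that had an Xist UMI but lacked Y-linked ones gave -0.35 and -0.56 for Kdr and 0.091 and 0.086 for Flt1. A mitochondrial share of at most 10% gave 0.042 and 0.025 for Flt1 and -0.56 for Fzd4 in rd10-vehicle, and dropping the 5% of cells with the most UMIs gave 0.36 and 0.34 for Flt1. The mean over cells gave 0.17 for Kdr, 0.38 for Flt1 and 0.82 for Lrp5 (rd10-vehicle over WT), -0.028 for Fzd4 and 1.08 for Tspan12 (rd10-TMB over WT), and -0.077 for Flt1 and -0.55 for Lrp5 (rd10-TMB over rd10-vehicle). Thinning gave 0.50 and 0.47 for Flt1 and 0.16 and 0.17 for Fzd4 against WT, 1.43 and 0.90 for Tspan12 and -0.57 and -0.94 for Lrp5 in rd10-TMB against WT and rd10-vehicle, Tspan12 and Lrp5 on 3 to 9 UMIs a library. Leaving out cells with a Pdgfrb, Kcnj8 or Rgs5 UMI gave 0.47 and 0.38 for Kdr in rd10-TMB against WT and rd10-vehicle, 0.34, 0.63 and 0.28 for Flt1, -1.95 (rd10-vehicle over WT) and 1.87 (rd10-TMB over rd10-vehicle) for Fzd4, 0.96 for Tspan12 in rd10-TMB over rd10-vehicle and -1.58 and -1.62 for Lrp5 in rd10-TMB. Without that UMI and without bipolar-rich cells 24, 9 and 13 cells were left. Leaving out pericyte-rich cells gave 0.33 (rd10-TMB over WT) and 0.061 (rd10-TMB over rd10-vehicle) for Flt1 and 0.27 for Fzd4 in the latter. The cause of these shifts was not tested.

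With at least 50 UMIs the members past the limit were 0 in cluster 11 for rd10-vehicle over WT and for rd10-TMB over rd10-vehicle, and 0 in astrocyte-like cells for rd10-TMB over WT. At 2-fold, listed genes past the limit were 22, 19 and 0 in MG-like cells and 8, 5 and 1 in cluster 11, and with 50 UMIs they were 11 (rd10-TMB over WT) and 4 (rd10-TMB over rd10-vehicle) in cluster 11. The share of all genes was not computed at 2-fold or with 50 UMIs, so these counts cannot be set against a background. With the rod-like level subtracted, MG-like cells held 34.6% of WT Vegfa UMIs and 97.5% and 98.0% of Kdr UMIs in rd10-vehicle and rd10-TMB, and cluster 11 held 91.9%, 94.4% and 94.5% of Fzd4 UMIs.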

Other observations

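MG-like cells with a UMI of the stress-induced gene Lcn2 numbered 9, 653 and 300 (WT, rd10-vehicle, rd10-TMB). Vegfa stood at 71.6 CPM in those of rd10-vehicle and 62.8 CPM in those of rd10-TMB, against 121 and 166 CPM in the MG-like cells without an Lcn2 UMI. The WT cells without one had 216 CPM. Cells with an Lcn2 UMI were deeper, with median UMIs of 10153 against 8175 in rd10-vehicle and 11722 against 9064.5 in rd10-TMB. Kdr was 798 and 740 CPM with an Lcn2 UMI and 907 and 830 CPM without, and Ndp was 34.1 and 25.6 CPM with and 28.7 and 24.5 CPM without.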
